A study of Mus musculus with 8 samples.

Results

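The p53 family and its target genes were followed on 8 arrays of NS tet-off mouse embryonic stem cells (ESCs). The genes were chosen by name, as the family and a list of well-known targets, and 33 of the 35 listed genes had a named probe set. This list and the others below were chosen with earlier results of these data known. Counts set against all genes therefore describe the lists and are not independent tests. Values for p53 itself and 1 other listed gene are not analysed here. By role, the 33 comprised 2 family members, 4 feedback targets, 7 cell cycle arrest targets, 10 cell death targets, 5 DNA repair targets and 5 stress and metabolism targets, out of 18194 genes in all.

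NS tet-off ESCs are male cells of 129sv background in which both copies of the nucleostemin (NS) gene, Gnl3, are disrupted, and NS is made only from a cDNA in the ROSA26 locus that doxycycline (Dox) shuts off. All 8 arrays share these alleles. Dox-untreated cells and cells given Dox for 6 days were compared in 4 backgrounds: an empty vector, an empty vector with exposure to 2i (inhibitors of MEK and GSK-3), a stably integrated Nanog vector and a stably integrated Esrrb vector, the last 3 being the conditions examined for their effect on the loss of NS. The other cultures were grown with leukemia inhibitory factor and serum without feeders. Each of the 8 conditions has 1 array, so no difference within a background has a replicate. The array measures bulk RNA, in which fewer cells of a type and less RNA per cell cannot be told apart.

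p53 is a transcription factor that is held at a low level by Mdm2, the ubiquitin ligase that marks it for degradation and is itself a p53 target. When p53 is stabilised by DNA damage, nucleolar stress or an excess of oncogene signalling, it activates genes that stop the cell cycle, kill the cell, repair DNA or adjust metabolism. In ESCs p53 is abundant, and its activation is also known to favour differentiation. NS resides in the nucleolus, where it takes part in ribosome assembly, and it can bind Mdm2.

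The p53 response element is built from pairs of a palindromic 10-base unit, here called the p53 decamer, and the promoters that hold it are shown because they belong to genes described below. RefSeq windows from 250 bases before to 50 bases after the annotated start (GRCm38.p6) were found for 23 of the 33 genes, which have 30 windows. A decamer without mismatch was present in 9 of the 30 windows (30%), against 8.36% of 32851 windows of all genes. It was found at Aen, Ccng1, Cdkn1a, Ei24, Gadd45a, Mdm2, Polk and Sesn1. The windows of Aen overlap and hold the same decamer, which is thus counted in each. By gene, 8 of the 23 had a decamer, against 9.55% of 27025 genes. A pair of decamers no more than 13 bases apart with at most 1 mismatch in all was present in 3 of the 30 windows, at Ccng1, Cdkn1a and Polk, against 1.09% of all windows. The Cdkn1a pair had no mismatch, which held for 0.0731% of all windows. The decamer reads the same on both strands, so 1 scan covers both. Its matches are descriptions of the letters, not measurements of binding. The 250 bases before the start of these 3 genes and of Mdm2 are given 5′ to 3′ on the strand of the gene, with the decamers in capitals. Cdkn1a lies at chr17:29090729-29090978 on the plus strand, Ccng1 at chr11:40755287-40755536 on the minus strand, Polk at chr13:96519188-96519437 on the minus strand and Mdm2 at chr10:117710759-117711008 on the minus strand.
Cdkn1a: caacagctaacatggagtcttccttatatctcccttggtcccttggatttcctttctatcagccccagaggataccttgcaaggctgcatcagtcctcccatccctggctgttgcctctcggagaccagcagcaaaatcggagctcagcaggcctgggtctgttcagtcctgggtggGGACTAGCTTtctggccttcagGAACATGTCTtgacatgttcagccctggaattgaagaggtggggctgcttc
Ccng1: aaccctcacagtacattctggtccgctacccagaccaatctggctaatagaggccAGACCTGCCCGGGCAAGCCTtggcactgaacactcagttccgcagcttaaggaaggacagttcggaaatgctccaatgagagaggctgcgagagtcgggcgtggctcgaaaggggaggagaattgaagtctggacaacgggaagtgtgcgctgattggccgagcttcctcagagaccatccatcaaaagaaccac
Polk: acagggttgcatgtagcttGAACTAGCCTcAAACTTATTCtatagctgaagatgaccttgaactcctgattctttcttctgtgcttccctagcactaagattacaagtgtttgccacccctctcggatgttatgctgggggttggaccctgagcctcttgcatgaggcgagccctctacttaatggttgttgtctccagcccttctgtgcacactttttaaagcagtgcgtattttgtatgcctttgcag
Mdm2: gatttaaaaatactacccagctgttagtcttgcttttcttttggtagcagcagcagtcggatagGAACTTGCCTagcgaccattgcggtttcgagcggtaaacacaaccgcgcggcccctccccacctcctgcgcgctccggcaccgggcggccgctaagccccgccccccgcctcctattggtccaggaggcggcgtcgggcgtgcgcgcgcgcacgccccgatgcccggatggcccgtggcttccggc
The decamers of Cdkn1a begin 73 and 51 bases before the start, with 12 bases between them. Those of Ccng1 adjoin each other, and those of Polk are 1 base apart. The window shown for Cdkn1a is that of its upstream start. The window at its other start, chr17:29093519-29093818, holds no decamer. The window shown for Polk is that of its downstream start. The window at the upstream start of Polk, chr13:96542530-96542829, holds no decamer.

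Before the p53 targets, the arrays were checked against their labels. The log2 signal of Gnl3 was 13.47, 13.54, 13.68 and 13.61 on the Dox-untreated arrays of the empty vector, 2i, Nanog and Esrrb backgrounds, and 7.79, 8.01, 9.13 and 8.61 on the Dox-treated arrays. Gnl3 fell by 5.19 over the 4 backgrounds (standard error 0.191, adjusted p = 0.00278, limma). Of 10 ESC markers, the 3 brightest were Dppa5a, Zfp42 and Pou5f1, and the summed linear signal of the list was lowest, at 58674, on the empty vector Dox-treated array and between 71176 and 76434 on the others. The 9 fibroblast markers summed to between 209.8 and 661.0. The probe sets of Nanog and Esrrb themselves were not clearly higher on the arrays labelled as overexpressing them. Nanog was at 12.35 and 12.23 on the arrays labelled Nanog-overexpressing, Dox-untreated and Dox-treated, against 12.81 and 12.49 with an empty vector. The probe set chosen for Esrrb was at 11.27 and 11.38 on the arrays labelled Esrrb-overexpressing, against 11.31 and 10.38, while the dimmest of its 3 probe sets was higher, at 7.77 and 7.87 against 7.03 and 5.85. Whether these probe sets can detect the RNA of the vectors is not given in the sources used here, so this does not check the labels, and the names Nanog and Esrrb follow them throughout. The 2i Dox-untreated array did not show the mark of 2i. Dusp6 and Spry4, which MEK signalling induces, were at 10.95 and 9.92 on the 2i Dox-untreated array, close to the 10.97 and 10.17 of the empty vector Dox-untreated array, but at 7.63 and 4.07 on the 2i Dox-treated array. Each 2i ratio of the 33 genes was therefore also taken against the untreated empty vector array, and the genes that this moved by over 1.5 times are named. Neither reference shows the mark of 2i, so exposure to 2i and loss of NS cannot be told apart in a 2i ratio. The limma fits below include this pair, so the same limit holds for them.

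Most p53 target genes were higher after Dox, by a large amount with an empty vector or 2i and by less with Nanog or Esrrb. For each pair the log2 signal without Dox was subtracted from that with Dox, so that a log2 ratio of 1 is a 2-fold difference. Its median over the 33 genes was 1.46 with an empty vector, 1.13 with 2i, 0.37 with Nanog and 0.44 with Esrrb. The medians of all 18194 genes were -0.03, 0.03, -0.01 and 0.00. Over 2-fold higher were 20 of the 33 genes with an empty vector (5.36% of all genes), 21 with 2i (4.81%), 6 with Nanog (1.13%) and 5 with Esrrb (1.06%). Both the empty vector and the 2i ratio were past 2-fold for 19 genes (2.78% of all genes). Over 2-fold lower was Gadd45a alone, with 2i (3.1% of all genes), and 0 genes were so with an empty vector (3.85%), Nanog (1.17%) or Esrrb (0.967%). The ratio was above 0 in all 4 pairs for 24 of the 33 genes, against 18.4% of all genes. Set against the empty vector Dox-untreated array, the 2i Dox-treated array had a median of 1.02, and 18 of the 33 genes were over 2-fold higher (5.99% of all genes), without Trp53inp1, Zmat3 and Pmaip1. The ratio moved by over 1.5 times for 8 genes, among them Trp53inp1 (1.05 to 0.63), Zmat3 (1.11 to 0.45), Bbc3 (0.65 to 0.17) and Eda2r (0.83 to 0.25), the others being Trp63, Tnfrsf10b, Rrm2b and Xpc, with ratios under 0.6 in size by both references.

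**Figure D1:**
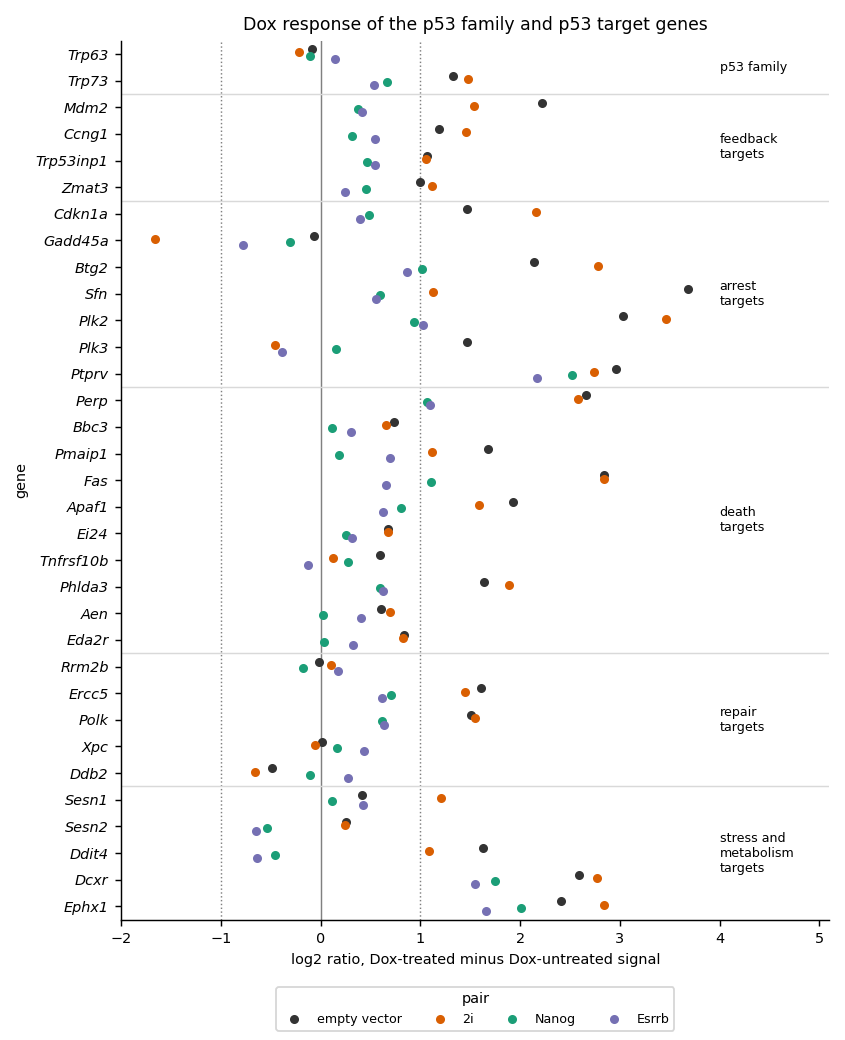
Log2 ratio of Dox-treated to Dox-untreated signal (x axis) for the 33 genes (rows, grouped by role) in the 4 pairs (point colours, 1 pair of arrays each); dotted lines mark 2-fold. Black and orange points (empty vector and 2i) lie right of green and purple points (Nanog and Esrrb) in most rows, with medians of 1.46 and 1.13 against 0.37 and 0.44.

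Limma was used to ask which genes responded to Dox in common over the 4 backgrounds, taken as replicates. In this fit, ratios that differ between the backgrounds widen the standard error. A gene that did not pass can therefore still have a response in some pairs. Of the 33 genes, 12 rose and 0 fell (36.4% higher). Of all genes, 3.69% rose and 3.39% fell, 7.07% together. The genes that rose were Trp73, Trp53inp1, Btg2, Ptprv, Perp, Apaf1, Ei24, Phlda3, Ercc5, Polk, Dcxr and Ephx1. At an unadjusted p under 0.05, 24 genes were higher, against 13.4% of all genes, and Gadd45a was lower, against 14%. On 19 of the 33 genes all 4 Dox-treated arrays were above all 4 Dox-untreated arrays, against 8.79% of all genes. These calls depended on all 4 pairs being used. Without any 1 pair, whether empty vector, 2i, Nanog or Esrrb, Ptprv was the 1 gene of the 33 still called, and between 3 and 35 of all genes were called.

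The response in the Nanog and Esrrb pairs was then compared with that in the empty vector and 2i pairs. In this fit 2 of the 33 genes, Plk2 and Perp, responded less with Nanog or Esrrb, and 0 responded more. Of all genes 0.0824% (15) responded less and 0 more. At an unadjusted p under 0.05, 24 of the 33 genes had a smaller response with Nanog or Esrrb (7.94% of all genes), and Ddb2 had a larger one (7.86%). Both Nanog and Esrrb ratios lay below both empty vector and 2i ratios for 25 of the 33 genes, against 24.1% of all genes. The reverse order held for Xpc and Ddb2, against 23.2%, and neither order for Trp63, Gadd45a, Plk3, Tnfrsf10b, Rrm2b and Sesn1. The median difference was -0.80 on the log2 scale over the 33 genes and -0.02 over all genes.

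**Figure D2:**
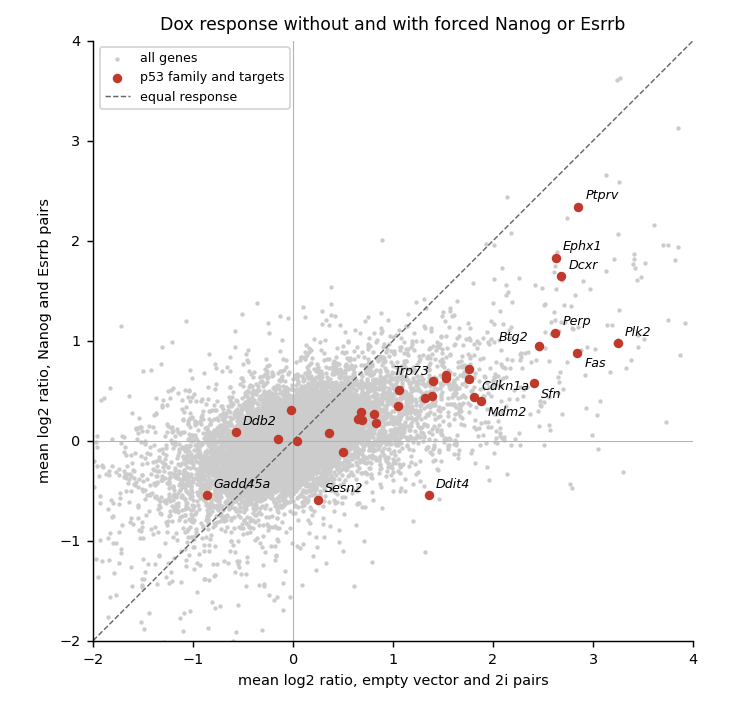
Mean log2 ratio in the empty vector and 2i pairs (x axis) against that in the Nanog and Esrrb pairs (y axis), for the 33 genes (red) and all 18194 genes (grey, of which 67 lie outside the plotted range of -2 to 4); the dashed line marks equal response. Most red points lie below the line, Ptprv closest to it among those with a large response and Ddit4 below 0 on the y axis.

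Of the family, Trp63 and Trp73 were measured. Trp63, which in epithelia sets the basal cell programme, had log2 signals of 3.92, 4.07, 3.84 and 3.82 on the Dox-untreated arrays of the empty vector, 2i, Nanog and Esrrb backgrounds and 3.83, 3.85, 3.73 and 3.96 on the Dox-treated arrays. These are below the array medians of 5.31 to 5.36, and the untreated and treated values overlap (common difference -0.069, standard error 0.092, adjusted p = 0.677). Trp73, a family member that can activate many of the same targets, was at 6.55, 6.19, 6.60 and 6.09 before Dox and 7.87, 7.67, 7.27 and 6.62 after it. All treated values of Trp73 were above all untreated values, and the gene rose by 1.0 over the backgrounds (standard error 0.19, adjusted p = 0.0415). Its ratio was 1.33 with an empty vector and 1.48 with 2i, but 0.67 with Nanog and 0.53 with Esrrb. That difference of -0.80 did not pass the test (standard error 0.20, adjusted p = 0.142).

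The feedback targets were higher after Dox in every pair, and none of them over 2-fold with Nanog or Esrrb. Mdm2 was at 10.54, 10.38, 10.60 and 10.62 on the Dox-untreated arrays, in the order empty vector, 2i, Nanog, Esrrb used throughout, and at 12.76, 11.92, 10.97 and 11.04 on the Dox-treated arrays. The 4 untreated values of Mdm2 lay close together, and the treated ones set the empty vector and 2i arrays apart from the other two. Its common difference was 1.14 (standard error 0.32, adjusted p = 0.0868) and the Nanog and Esrrb pairs differed from the others by -1.48 (standard error 0.23, adjusted p = 0.066), neither of which passed. Ccng1, cyclin G1, which recruits a phosphatase to Mdm2, was at 12.06, 11.61, 11.97 and 12.06 before and 13.24, 13.07, 12.28 and 12.60 after Dox. Its untreated and treated values did not overlap, with an adjusted p of 0.054 for the common difference of 0.87 (standard error 0.20). Trp53inp1, a p53-induced nuclear protein that promotes p53 phosphorylation and autophagy, rose by 0.78 (standard error 0.12, adjusted p = 0.0291), with ratios of 1.06, 1.05, 0.47 and 0.54. Zmat3, an RNA-binding protein, had ratios of 0.99, 1.11, 0.46 and 0.24 and did not pass the test (adjusted p = 0.0553).

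The arrest targets held both the highest ratio of the 33 genes, Sfn at 3.69 with an empty vector, and the lowest, Gadd45a at -1.66 with 2i. Cdkn1a, which encodes the p21 inhibitor of cyclin-dependent kinases, was at 9.62, 9.47, 9.86 and 9.96 before Dox and 11.08, 11.63, 10.34 and 10.35 after it. The 2i Dox-treated array was the highest for Cdkn1a and the untreated and treated arrays did not overlap, but neither the common difference of 1.12 (standard error 0.30, adjusted p = 0.0781) nor the difference of -1.37 between the pairs (standard error 0.24, adjusted p = 0.0829) passed. A second probe set of Cdkn1a gave ratios of 1.58, 2.27, 0.56 and 0.31, in the same order of pairs above and below 1. Btg2, an antiproliferative factor that promotes shortening of mRNA tails, was at 9.69, 9.03, 9.60 and 9.90 before and 11.83, 11.80, 10.62 and 10.77 after Dox. Btg2 rose by 1.70 (standard error 0.33, adjusted p = 0.0421).

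Plk2, a polo-like kinase of the centriole cycle, was at 9.36, 8.57, 9.69 and 9.83 before Dox and 12.38, 12.03, 10.62 and 10.86 after it. Its ratios of 3.03 and 3.46 with an empty vector and 2i were set against 0.93 and 1.02 with Nanog and Esrrb, and this difference of -2.27 passed the test (standard error 0.18, adjusted p = 0.047). When the 2i Dox-treated array was set against the untreated empty vector array, the difference was -1.88 and no longer passed (adjusted p = 0.0699). Part of this difference stood in the untreated arrays, over which Plk2 had the widest range of the 33 genes, 1.26 on the log2 scale. A second probe set of Plk2, dim at a mean log2 signal of 3.66, had ratios of 0.18, 0.29, 0.37 and -0.22.

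Ptprv, a receptor-type phosphatase gene that p53 induces in mouse cells, differed in pattern. Its log2 signal was 7.30, 7.40, 7.41 and 7.26 before Dox, the narrowest range of the 33 genes at 0.145, and 10.25, 10.14, 9.93 and 9.43 after it. Ptprv rose by 2.60 over the 4 backgrounds (standard error 0.15, adjusted p = 0.0118), and its ratio stayed above 2 in each pair. The mean ratio with Nanog and Esrrb was 82.2% of that with an empty vector and 2i, and the difference of -0.51 did not pass (standard error 0.19, adjusted p = 0.295). Ptprv was the gene that remained called in the common response whichever pair was left out.

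The other arrest targets differed between the empty vector and 2i pairs. Sfn, the 14-3-3 sigma protein that holds cyclin B and its kinase in the cytoplasm, went from 6.46 to 10.14 with an empty vector, from 6.35 to 7.47 with 2i, from 6.12 to 6.72 with Nanog and from 6.11 to 6.66 with Esrrb. Plk3, a stress-responsive polo-like kinase, had ratios of 1.46, -0.46, 0.15 and -0.39 and so was over 2-fold higher with an empty vector alone. Gadd45a, a stress sensor that binds PCNA, was at 11.31, 11.21, 11.20 and 11.11 before and 11.24, 9.54, 10.89 and 10.33 after Dox. It was lower on every Dox-treated array than on its untreated partner, most of all with 2i. A decamer stands in its promoter window. For Sfn, Plk3 and Gadd45a the common difference did not pass (adjusted p = 0.14, 0.752 and 0.144).

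**Figure D3:**
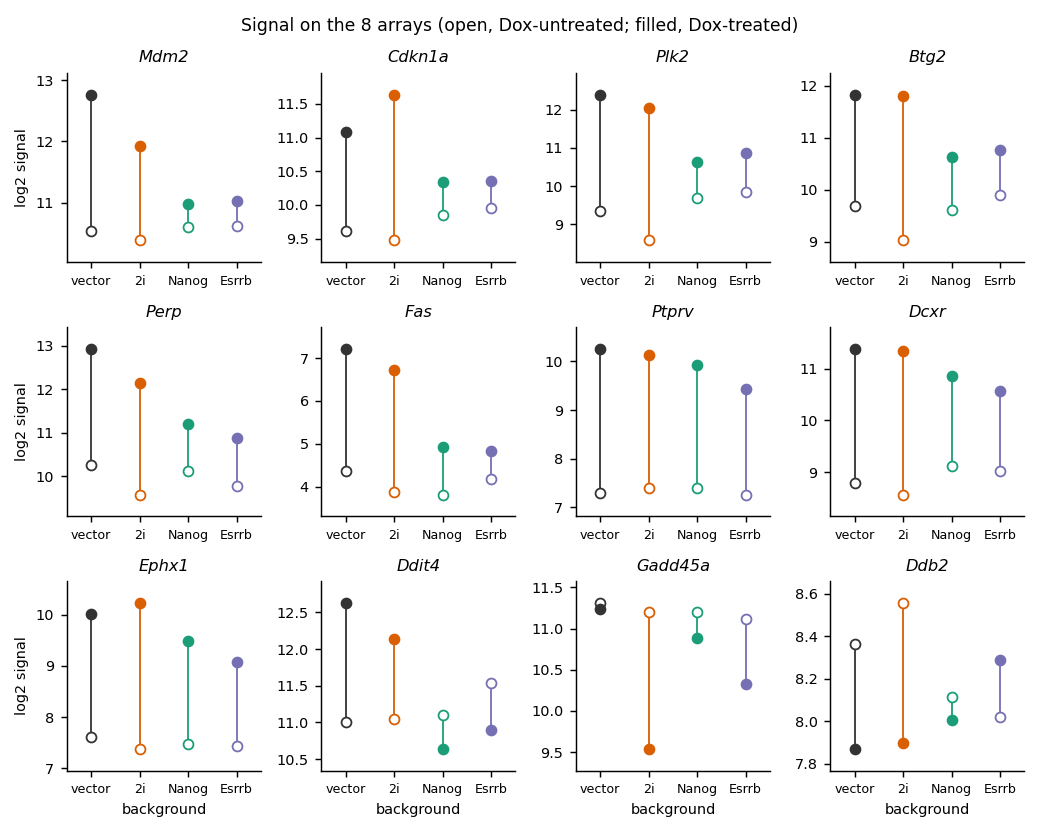
Log2 signal (y axis, scaled to each gene) of 12 of the genes on the Dox-untreated (open) and Dox-treated (filled) array of each background (x axis); each point is 1 array. Lines are long for the empty vector and 2i and short for Nanog and Esrrb in Mdm2, Cdkn1a, Plk2, Btg2, Perp and Fas, long in all 4 backgrounds in Ptprv, Dcxr and Ephx1, and turned downward for Nanog and Esrrb in Ddit4.

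Among the cell death targets, all 10 genes were higher after Dox in the empty vector, 2i and Nanog pairs and 9 were in the Esrrb pair, against 45.7%, 53.5%, 48% and 50.4% of all genes. Other probe sets gave another sign for Aen, at -0.18, -0.16 and -0.37 with Nanog against 0.023 on the one used, and for Tnfrsf10b, at 0.14 with Esrrb against -0.13. Perp, a membrane protein of desmosomes that p53 induces during apoptosis, was at 10.25, 9.57, 10.13 and 9.78 before Dox and 12.92, 12.15, 11.20 and 10.87 after it. In common, Perp rose by 1.85 (standard error 0.32, adjusted p = 0.0351) and was over 2-fold higher in every pair. Its response was smaller with Nanog and Esrrb, a difference of -1.54 that passed the test (standard error 0.11, adjusted p = 0.047). With the untreated empty vector array as reference for 2i this became -1.20, which did not pass (adjusted p = 0.135). Perp and Plk2 also lost this call without the Nanog pair (adjusted p = 0.525 for both) or without the Esrrb pair (adjusted p = 0.58 for both), with differences of -1.53 and -1.55 for Perp and -2.22 and -2.31 for Plk2.

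Fas, the death receptor, was at 4.36, 3.87, 3.81 and 4.18 before Dox, below the array medians, and at 7.21, 6.71, 4.91 and 4.83 after it. Its ratio was 2.84 with both an empty vector and 2i, against 1.10 with Nanog and 0.65 with Esrrb. Neither the common difference of 1.86 (standard error 0.41, adjusted p = 0.0535) nor the difference of -1.96 between the pairs (standard error 0.24, adjusted p = 0.0521) passed. Low signals on an array compress such ratios.

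Apaf1, the scaffold of the apoptosome, rose by 1.24 (standard error 0.23, adjusted p = 0.0397). It went from 9.38 to 11.31, from 9.20 to 10.79, from 9.31 to 10.11 and from 9.42 to 10.04. Phlda3, which opposes Akt at the membrane, rose by 1.19 (standard error 0.25, adjusted p = 0.0473), from 9.44 to 11.08, from 9.0 to 10.89, from 9.51 to 10.11 and from 9.48 to 10.10. Both genes had treated arrays above all untreated ones, with the empty vector and 2i arrays highest. Ei24, a membrane protein of the endoplasmic reticulum, rose by 0.48 (standard error 0.10, adjusted p = 0.0484), with ratios of 0.67, 0.68, 0.25 and 0.32. Pmaip1, which encodes the BH3-only protein Noxa, had ratios of 1.67, 1.11, 0.19 and 0.70 and an adjusted p of 0.0683. Bbc3, which encodes PUMA, was higher by less than 2-fold in each pair, with ratios of 0.74, 0.65, 0.11 and 0.30 (adjusted p = 0.0993). Of the remaining Aen, Eda2r and Tnfrsf10b, none was over 2-fold in a pair. Eda2r reached the highest ratio of these, 0.84 with an empty vector, and Tnfrsf10b the lowest, -0.13 with Esrrb.

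The repair targets divided into genes with a response and genes without one of that size. Ercc5, the XPG endonuclease of nucleotide excision repair, went from 8.72 to 10.32, from 8.61 to 10.06, from 8.96 to 9.66 and from 8.82 to 9.43. Polk, a translesion polymerase, went from 8.69 to 10.20, from 8.26 to 9.81, from 8.63 to 9.25 and from 8.34 to 8.97. Ercc5 rose by 1.09 (standard error 0.20, adjusted p = 0.0368) and Polk by 1.08 (standard error 0.20, adjusted p = 0.0396), with nearly the same ratios in each pair. Rrm2b, the p53-induced ribonucleotide reductase subunit, had ratios between -0.18 and 0.17, with the pairs in neither order. The damage sensors of nucleotide excision repair had the pairs in the reverse order. Xpc had ratios of 0.01, -0.06, 0.17 and 0.44 and Ddb2 of -0.49, -0.66, -0.11 and 0.27. Neither passed the test of the difference (adjusted p = 0.476 and 0.209), and both probe sets of Ddb2 were lower with an empty vector and 2i.

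The metabolic enzymes Dcxr and Ephx1 kept most of their response on the log2 scale with Nanog or Esrrb. Dcxr, an L-xylulose reductase, was at 8.78, 8.56, 9.12 and 9.01 before Dox and 11.38, 11.34, 10.86 and 10.56 after it, and rose by 2.16 (standard error 0.23, adjusted p = 0.0189). Ephx1, microsomal epoxide hydrolase, was at 7.61, 7.38, 7.48 and 7.43 before and 10.02, 10.22, 9.48 and 9.09 after Dox, and rose by 2.23 (standard error 0.20, adjusted p = 0.0145). Mean log2 ratios with Nanog and Esrrb were 61.4% of those with an empty vector and 2i for Dcxr and 69.7% for Ephx1. As fold differences, the pairs had 6.04, 6.83, 3.35 and 2.93 for Dcxr and 5.31, 7.16, 4.01 and 3.15 for Ephx1. Dcxr and Ephx1, with Ptprv and Perp, were the 4 genes over 2-fold higher in all 4 pairs, which held for 0.385% of all genes. The difference between the pairs was -1.04 for Dcxr (standard error 0.15, adjusted p = 0.0582) and -0.79 for Ephx1 (standard error 0.22, adjusted p = 0.177).

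Ddit4 and Sesn2, which restrain mTORC1, had ratios of opposite sign on either side. Ddit4 (REDD1) went from 10.999 to 12.63 with an empty vector and from 11.05 to 12.14 with 2i, but from 11.09 to 10.64 with Nanog and from 11.53 to 10.90 with Esrrb. Sesn2 had smaller ratios of 0.25, 0.25, -0.53 and -0.64. The differences of -1.90 for Ddit4 (standard error 0.20, adjusted p = 0.0518) and -0.84 for Sesn2 (standard error 0.12, adjusted p = 0.0643) did not pass. Both are also targets of the integrated stress response. The 12 genes of that list, which include them, had median ratios of 0.00, -0.04, -0.49 and -1.21. With Nanog and with Esrrb 12 of 12 were lower, against 9457 and 9009 of all 18194 genes. Some were only slightly lower, such as Asns at -0.05 and -0.08. The part of that list in the Ddit4 and Sesn2 values was not tested. Sesn1, a sestrin that p53 induces, had ratios of 0.41, 1.20, 0.12 and 0.42, highest with 2i (adjusted p = 0.127 for the common difference).

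Among the 20 genes whose mean ratio with an empty vector and 2i exceeded 1, the share of that ratio found with Nanog and Esrrb ran from 82.2% for Ptprv down to -40.1% for Ddit4. Ephx1 and Dcxr followed Ptprv. The lowest shares above 0 were 21.0% for Mdm2, 23.8% for Sfn and 24.2% for Cdkn1a. With the untreated empty vector array as reference for 2i, 18 genes exceeded 1, without Trp53inp1 and Zmat3, and the shares were 80.8% for Ptprv, 72.8% for Ephx1, 64.0% for Dcxr, 25.2% for Cdkn1a, 24.3% for Sfn, 21.9% for Mdm2 and -39.3% for Ddit4. These shares describe 1 array per condition, and no test orders the genes.

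**Figure D4:**
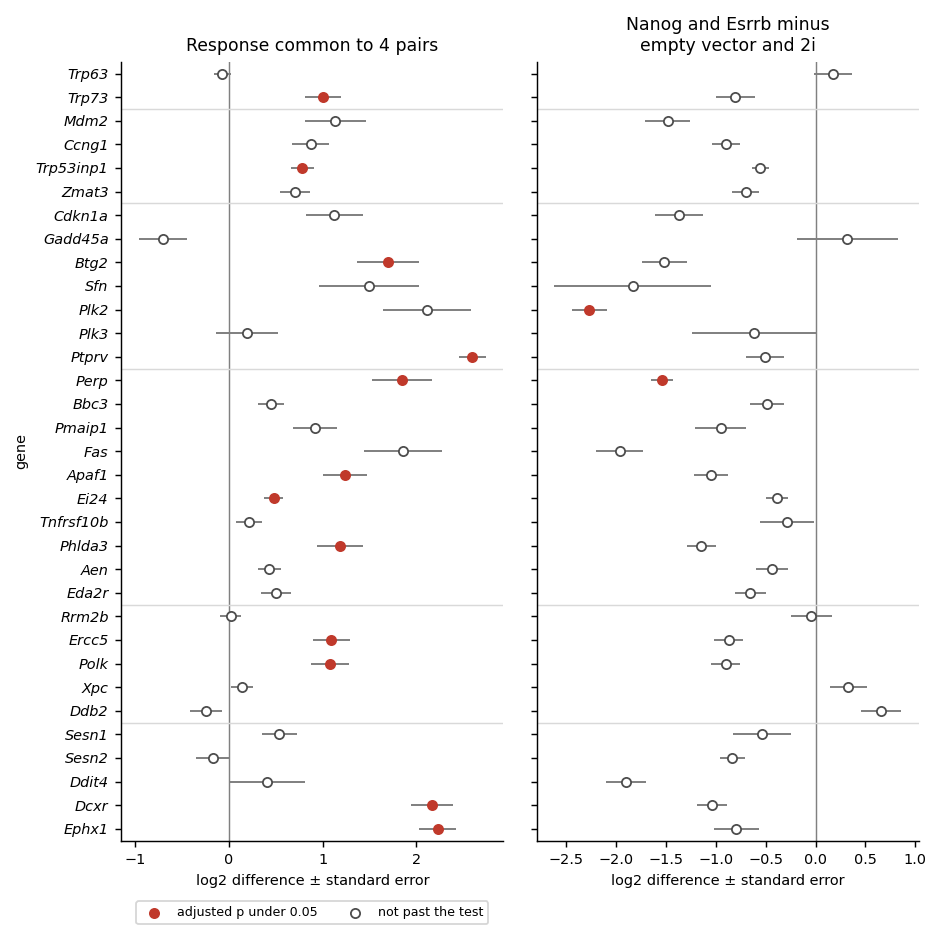
Limma estimates on the log2 scale with their standard errors (bars) for the 33 genes (rows): the response common to the 4 pairs (left) and the response in the Nanog and Esrrb pairs minus that in the empty vector and 2i pairs (right). Filled points passed an adjusted p of 0.05 over all genes, 12 on the left and 2 on the right.

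The arrays were also compared at the same Dox state. Before Dox, the 33 genes had a median difference from the empty vector array of -0.19 with 2i, -0.06 with Nanog and -0.03 with Esrrb. None of them differed over 2-fold, near the shares of all genes. Those shares were 0.517%, 0.434% and 1.26% higher and 0.242%, 0.253% and 0.561% lower. With 2i, 24 of the 33 genes were lower than with the empty vector before Dox, against 49% of all genes. After Dox, 3 genes were over 2-fold lower with 2i than with the empty vector, 10 with Nanog and 13 with Esrrb, and 0 were over 2-fold higher with any of them. These comparisons share the empty vector array. Of all genes, 2.58%, 3.68% and 3.56% were over 2-fold lower, and 3.14%, 3.22% and 3.59% over 2-fold higher. The count of 0 higher is near the latter shares. Nanog and Esrrb cells after Dox had 0 of the 33 genes over 2-fold apart, near the 2.55% of all genes. The Dox ratio exceeded a gene's own range over the 4 untreated arrays for 28 genes with an empty vector, 26 with 2i, 14 with Nanog and 18 with Esrrb, against 18.7%, 22.2%, 12.3% and 15% of all genes.

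Other genes of the pathway had smaller median ratios with an empty vector and 2i. Of 16 further p53 targets 4 rose in common and 0 fell, against 3.69% and 3.39% of all genes. Their median ratios were 0.84, 0.68, 0.29 and 0.23 over the 16. The 4, named here after their values were seen, were Pidd1, Rps27l, Ckap2 and Psrc1, by 0.45 to 0.68. Of the 16, 0 passed the test of the difference between the pairs, near the 0.0824% of all genes that did. Of this list, Dram1, Lpin1, Ak1, Slc19a2 and Igfbp3 had the largest such differences among genes over 2-fold in a pair, from -1.40 for Dram1 to -0.83 for Igfbp3. The Nanog and Esrrb ratios differed in sign for Dram1 (0.46 and -1.12) and Igfbp3 (-0.32 and 1.24). Their differences therefore do not describe a response shared by the Nanog and Esrrb pairs. The untreated arrays of Dram1 ranged over 1.74, more than its difference in size. Lpin1, a phosphatidate phosphatase, had ratios of 1.68, 2.14, 0.71 and 0.35, and Ak1, adenylate kinase, of 1.49, 1.67, 0.49 and 0.56.

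The 23 measured regulators of p53, among them kinases, acetylases and ribosomal proteins that bind Mdm2, had median ratios of -0.03, -0.04, 0.00 and 0.00. Of these 23 genes 1 was called in common, which is near the shares of all genes (3.69% higher and 3.39% lower). It was Chek2, the checkpoint kinase that phosphorylates p53, named after its value was seen. Chek2 rose by 0.78 (standard error 0.09, adjusted p = 0.0199, limma). Sirt1, a deacetylase of p53, had ratios of -1.53, -1.52, -0.29 and -0.01. Wrap53, a Cajal body protein, had ratios of 1.96, 1.16, 0.24 and 0.06. Chek1 had ratios of -1.07, -0.98, -0.42 and -0.24, and Setd7 of 0.34, -0.02, -0.60 and -1.26. Cdkn2a, which encodes the Arf inhibitor of Mdm2 as well as p16, had ratios of 1.51, 0.51, 0.52 and 0.41. Its untreated arrays ran from 5.60 to 7.22, a range of 1.62 that exceeds each of these ratios. With the untreated empty vector array as reference, its 2i ratio was 2.13, above that range. None of these 5 passed either test.

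Markers of other cell types moved in the same pairs. The 12 trophoblast markers, with Krt8, Tfap2c and Krt18 the brightest, had median ratios of 1.69, 1.23, 0.16 and -0.01. Of these markers 12 of 12 were higher with an empty vector and with 2i, against 45.7% and 53.5% of all genes. Their ratios ran from 0.031 to 4.96 with an empty vector and from 0.11 to 3.75 with 2i. Their summed linear signal went from 1597 to 13833 with an empty vector, from 1850 to 6146 with 2i, from 2049 to 2152 with Nanog and from 2634 to 2421 with Esrrb. Such a sum follows the brightest genes. With an empty vector Krt8, Krt18 and Krt19 went from 8.40, 7.48 and 6.43 to 12.25, 11.89 and 11.39 on the log2 scale. Cdx2 and Elf5 were at 5.35 and 3.32 after Dox there, near or below the array medians. The 15 stratified epithelium markers, with Dsp, Jup and Sbsn the brightest, had medians of 0.45, 0.42, -0.07 and 0.06. Of them 12, 11, 7 and 9 were higher after Dox, against 45.7%, 53.5%, 48% and 50.4% of all genes. Krt10 was lower in every pair (-0.69, -0.28, -0.51 and -0.24). The sum of this list went from 1194 to 5534, from 1135 to 4252, from 1339 to 1338 and from 1258 to 1480. Sbsn went from 5.79 to 11.28 on the log2 scale with an empty vector. Perp and Sfn are also genes of epithelia. The 10 ESC markers had medians of -0.47, -0.12, 0.033 and 0.11. With an empty vector 7 of the 10 were lower, against 9870 of all 18194 genes, so this count alone shows little. The summed signal of these markers went from 72447 to 58674 there. The 7 proliferation genes, led by Pcna, Top2a and Mcm2, had medians of -0.45, -0.68, -0.01 and -0.10. The part of these genes and cell types in the p53 target values was not tested.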

How the data were processed

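RNA of 8 conditions, 1 array each, was measured on Affymetrix mouse arrays. The authors subtracted background and normalized with RMA in R (the affy package), and the deposited values are log2 signals. No source used here gives a version. The values were used as deposited, and the number of arrays limits precision. RMA brings the arrays to nearly the same distribution (medians 5.31 to 5.36) and can hide a global shift.

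Of 45101 probe sets, 34958 had 1 symbol in the platform annotation, 932 several and 9211 none. By Entrez ID, 34754 matched RefSeq. Each of 18194 genes took its probe set with the highest mean. All value columns were used.

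limma 3.58.1 (R 4.3.3; lmFit, eBayes with a trend) tested the Dox response with the background as a block (3 residual degrees of freedom) and its difference between pairs (2), with Benjamini-Hochberg adjustment over all genes at 0.05. The backgrounds stand in for replicates, so these p-values measure the spread between single arrays of different backgrounds. The fits were tested on simulated data. Figures used Python 3.11.15 and matplotlib 3.10.9. Alternatives were other probe set rules, filters, scalings, references, thresholds and fits, and leaving out each pair.

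The members and lists were chosen with earlier results of these data known. Named were the family, Mdm2, Cdkn1a and Gnl3, genes called or over 2-fold in a pair, the extremes of each role, at most 5 such genes of the further target and regulator lists, and the 3 brightest of other lists. Named outside this rule, some after their values were seen, were Dusp6, Spry4, Nanog and Esrrb, which check labels, and Bbc3, Rrm2b, Xpc, Aen, Eda2r and Tnfrsf10b. Other cases are marked in the text.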

Additional observations from a re-analysis of the deposited data

Results flagged for a closer look

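The Dox response of 4 genes differed between the pairs with Nanog or Esrrb and those with an empty vector or 2i. Plk2 (-2.27 on the log2 scale) and Perp (-1.54) passed the limma test of that difference. Ddit4 (-1.90) and Sesn2 (-0.84) had ratios above 0 in both pairs of one side and below 0 in both pairs of the other, and did not pass (adjusted p = 0.0518 and 0.0643).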

How the results depend on the processing

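The direction of most values held, while the calls near the threshold did not. In the common response 12 genes of the 33 were called. When all probe sets were averaged 5 were, 4 of them among the 12, and in the other 7 alternatives that kept all pairs 10 to 15. Leaving out 1 pair gave 1 gene of the 33 called each time and 3 to 35 of all genes, against 1287. For the difference between the pairs, 2 genes of 33 and 15 of all were called. The counts were 0 and 1 with the mean of probe sets or without a trend, 0 and 0 with dim probe sets filtered out or with the untreated empty vector array as reference for 2i, 4 and 87 without _x_at and _s_at probe sets, and 4 and 77 with centred arrays. At an unadjusted p under 0.05, 2427 and 3264 of all genes passed in the fits with 0 calls. Leaving out 1 pair gave 0 to 21 genes of the 33 and 0 to 2222 of all. Such a fit has 1 residual degree of freedom and assumes that the lone pair varies like those of the other side. At 1.5-fold, 13 genes were higher with Nanog and 12 with Esrrb, and 2 were lower with 2i and 3 with Esrrb. At 3-fold, 10 were higher with 2i, 3 with Nanog and 2 with Esrrb. The shares of all genes at these thresholds are not given here, so these counts only show how the 2-fold counts move. The 2i median with the empty vector reference was 1.02. Signs turned when a pair was left out for Plk3 (-0.23 to 0.41 in common and -1.58 to 0.34 for the difference, the turn coming without the empty vector pair) and for Gadd45a (difference -0.48 to 1.12, the turn coming without the 2i pair), for Trp63 with the mean of probe sets (difference -0.044), and on another, dim probe set for Ercc5 with 2i (-0.30), Sesn1 with 2i (-0.0022) and Plk2 with Esrrb (-0.22), where the ratio used was past 2-fold. In all, 22 of 108 ratios of the 27 probe sets not used had the opposite sign to the one used, in Aen, Ercc5, Plk2, Rrm2b, Sesn1, Tnfrsf10b and Trp63. The cause of these changes was not tested. Without the background as a block, 13 genes of the 33 were called in common, 10 of them shared. No paired analysis by replicate was possible because each condition has 1 array.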
